A study of Homo sapiens with 10 samples.

Results

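The genes described here encode the replication-dependent histones, the proteins around which DNA is wound, and lie in clusters on chromosomes 6, 1 and 12. Copies of H2A, H2B, H3 and H4 form the core of a nucleosome, and the linker histone H1 binds the DNA between cores. Cells make these histones in bulk during S phase, when new DNA must be packed, and each type is supplied by many similar genes. Their mRNAs usually have no poly(A) tail and end in a stem-loop that SLBP binds, and the mRNAs are degraded when DNA synthesis stops. The genes were chosen by their current symbols, H1-, H2AC, H2BC, H3C or H4C with a number, or by their older HIST names. The scanner output carries no gene names, so each probe was named by matching its accession to the RefSeq gene table of GRCh38.p14. This gave 75 annotated genes, of which 70 had 81 probes on the array and 65 were tested. Of the 75, 71 are cluster genes, and 4 linker histone genes lie elsewhere, H1-7, H1-8 and H1-10 among them. H3-7, H4C14, H3C14, H2AC18 and H2AC11 had no probe of their own. H1-1, H1-6, H1-8, H2BC1 and H4C16 had a probe but were too dim to be tested.

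MEG-01 cells are a human megakaryoblastic leukemia line. They were nucleofected with 200 nM of a miR-1225-3p precursor or, in the control group, with 200 nM of a scrambled precursor, and RNA was taken 24 hours later. Each group had 5 biological replicates, each on its own single-colour Agilent array, so that both groups carried a small RNA and had gone through the electric pulse. The question was which mRNAs differ when this microRNA is raised. The source label of the scrambled samples speaks of no treatment, but their titles name the transfection and were followed. Nothing in the labels says which cells took up the precursor, and every value is an average over transfected and untransfected cells of 1 line. The megakaryocytic markers ITGA2B, ITGB3, GATA1, NFE2 and FLI1 were well above background on all 10 arrays, GP9 in 5 scrambled and 3 miR-1225-3p samples and GP1BA in 3 and 1, whereas PF4 and TUBB1 were so on 0, and VWF on at most 1. Of markers of other cells, MS4A1, COL1A2 and COL3A1 were above background on 0 arrays, while CD14, CSF1R and CD3D were so on all 10, CD3E in 1 scrambled and 3 miR-1225-3p samples and COL1A1 on 3 of each. Their part in the results was not tested.

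On the first principal component of all genes, which held 69.6% of the variance, miR-1225-3p replicate 5 scored 56.74. That is among the scrambled arrays (48.65 to 79.87) and away from the other miR-1225-3p arrays (-133.4 to -52.98). Counts of histone genes and the values of several genes are therefore also given without it. Where nothing else is said, all 10 arrays were used. The arrays lay on 2 slides that both held both groups. The values below are log2 of the background-subtracted signal after cyclic loess normalization between arrays. A log2 fold change is the miR-1225-3p mean minus the scrambled mean, and adjusted p-values are from limma with Benjamini-Hochberg adjustment over 17379 genes. A gene with an adjusted p under 0.05 is said to have changed. The p-values measure the spread between these arrays. In bulk RNA, fewer cells in S phase and less histone mRNA per cell cannot be told apart.

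The transfected microRNA and the DNA before the start of 5 histone genes that changed in the same direction under 5 ways of normalizing are shown first. The mature microRNA, from RefSeq (GRCh38.p14, chr16:2090195-2090216, minus strand), is given with its seed, bases 2 to 8, in capitals.

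hsa-miR-1225-3p: uGAGCCCCugugccgcccccag

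The 250 bases before each RefSeq start (GRCh38.p14) are written 5′ to 3′ on the strand of the gene. Capitals mark every match to 4 motifs on either strand, a match on the other strand being shown as its reverse complement. The motifs were the box CCAAT, which NF-Y binds, and the TATA-type box TATAAA. The third was the octamer ATTTGCAT, which POU2F1 binds, and the last was AAACACA, an element described in H1 promoters. The windows are those of H2BC26 (chr1:228457853-228458102, plus strand), H2BC18 (chr1:149812371-149812620, minus strand), H2AC13 (chr6:27807923-27808172, plus strand), H3C15 (chr1:149852358-149852607, plus strand) and H4C5 (chr6:26204360-26204609, plus strand). The first 3 genes rose and the other 2 fell.

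H2BC26: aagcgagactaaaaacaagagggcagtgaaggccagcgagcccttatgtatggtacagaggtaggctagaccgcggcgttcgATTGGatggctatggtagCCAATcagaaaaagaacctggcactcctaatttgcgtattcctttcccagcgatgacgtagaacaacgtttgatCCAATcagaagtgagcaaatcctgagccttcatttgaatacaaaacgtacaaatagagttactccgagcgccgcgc
H2BC18: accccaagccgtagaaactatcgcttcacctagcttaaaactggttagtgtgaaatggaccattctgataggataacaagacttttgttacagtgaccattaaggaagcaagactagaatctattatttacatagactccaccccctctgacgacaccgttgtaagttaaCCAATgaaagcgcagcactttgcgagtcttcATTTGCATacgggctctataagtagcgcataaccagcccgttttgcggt
H2AC13: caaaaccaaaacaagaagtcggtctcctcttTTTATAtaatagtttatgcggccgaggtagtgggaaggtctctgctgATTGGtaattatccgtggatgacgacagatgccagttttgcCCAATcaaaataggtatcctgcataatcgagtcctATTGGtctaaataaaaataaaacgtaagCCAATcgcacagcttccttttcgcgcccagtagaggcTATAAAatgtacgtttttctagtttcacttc
H3C15: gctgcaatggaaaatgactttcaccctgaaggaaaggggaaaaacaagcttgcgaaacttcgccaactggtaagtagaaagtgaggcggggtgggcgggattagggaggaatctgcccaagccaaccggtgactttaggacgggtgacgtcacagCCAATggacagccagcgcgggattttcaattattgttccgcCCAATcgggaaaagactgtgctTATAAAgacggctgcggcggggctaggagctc
H4C5: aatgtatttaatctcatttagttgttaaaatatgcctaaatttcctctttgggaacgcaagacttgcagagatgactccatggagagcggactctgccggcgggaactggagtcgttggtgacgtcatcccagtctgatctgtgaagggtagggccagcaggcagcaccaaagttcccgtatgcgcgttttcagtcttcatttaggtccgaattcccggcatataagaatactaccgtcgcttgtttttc

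The window of H2BC26 held 3 CCAAT boxes and none of the other motifs, that of H2BC18 held 1 CCAAT box and 1 octamer, and that of H2AC13 held 4 CCAAT boxes and 2 TATA boxes. The window of H3C15 held 2 CCAAT boxes and 1 TATA box, and that of H4C5 held none of the 4 motifs. A match to these letters is a description, not a site at which a factor was shown to bind.

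Under cyclic loess most histone genes did not pass the test, and those that did lay in both directions. Of the 65 tested genes, 10 changed (15.4%), against 35.0% of all genes tested. Of these 10, 4 were higher in miR-1225-3p cells (17.0% of all genes were higher), namely H2BC26, H2BC18, H3C10 and H2AC13, and 6 were lower (18.1% of all genes), among them H3C15, H4C5, H2BC15, H4C1 and H4C3. With the 75th percentile for scaling the shares were 38.5% of the histone genes and 41.1% of all genes. With slide as a block 8 histone genes changed (12.3%, against 30.4% of all genes), within slide 1 alone 7 did (10.8%, against 25.9%), and within slide 2 limma called 0, with 3 at an unadjusted p under 0.05. The median log2 fold change of the 65 was -0.13, beside -0.06 over all genes. The median size of the change, whatever its sign, was 0.24 on the log2 scale for histone genes and 0.51 for all genes, and the median standard error was 0.178 and 0.239. A fold over 2 in either direction was reached by 6 histone genes (9.23%), beside 21.7% of all genes. These were H3C15, H1-10, H4C5, H2BC26, H2BC18 and H4C7. The 5 arrays of one group all lay beyond the 5 of the other for 6 histone genes (9.23%), against 12.7% of all genes. They were H2BC26, H2BC18, H2AC13 and H2AC8 on the higher side and H4C1 and H4C5 on the lower.

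**Figure D1:**
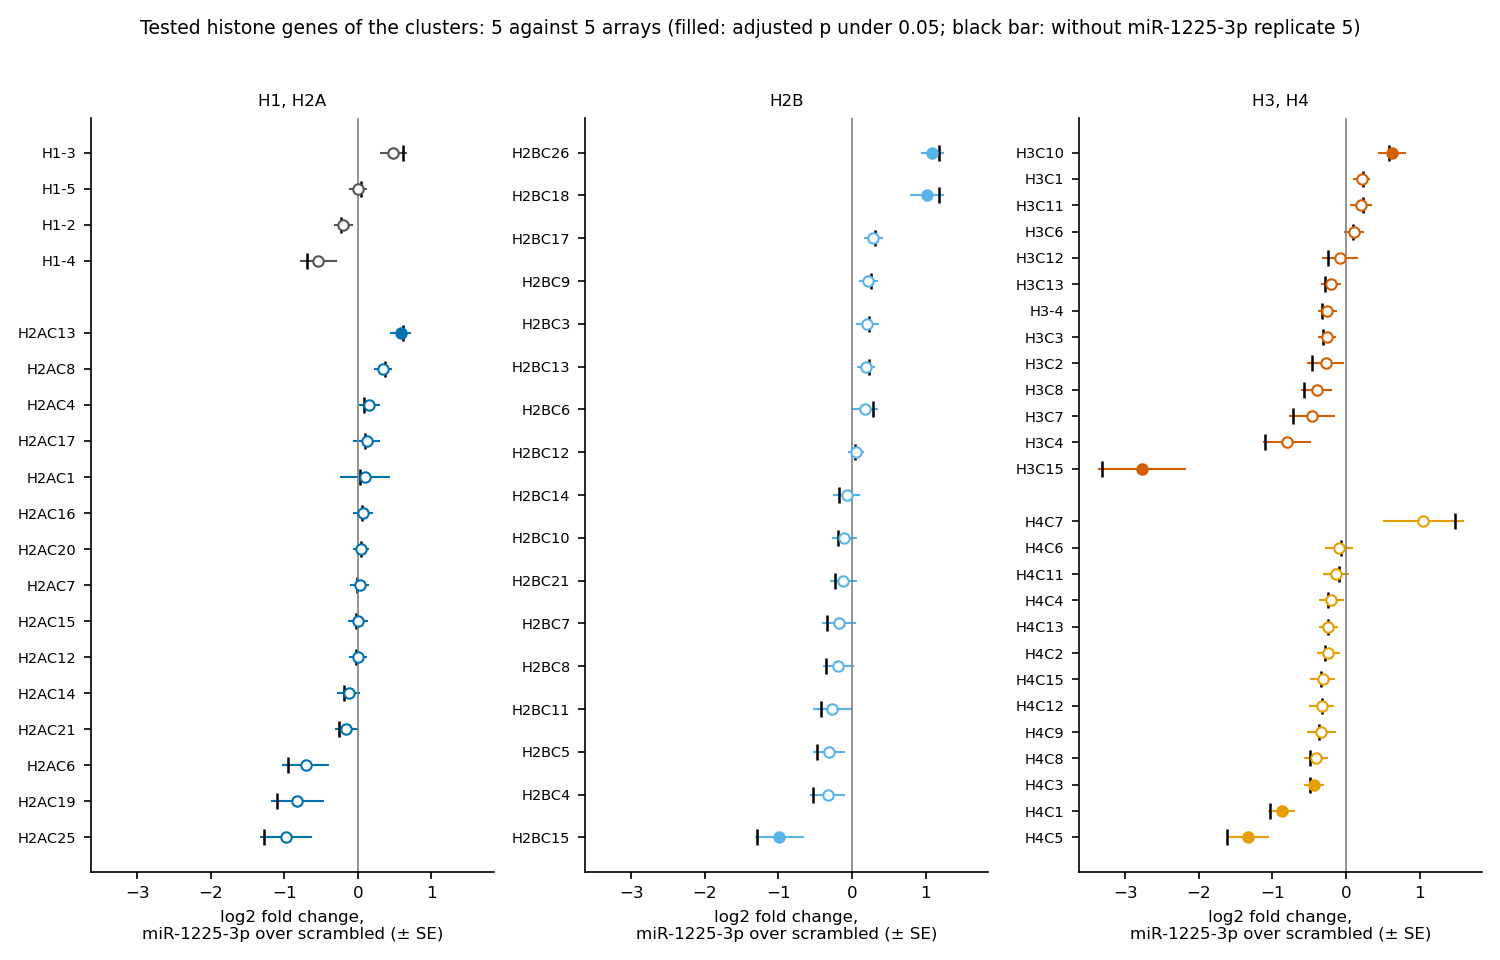
Log2 fold change (x axis, miR-1225-3p over scrambled, cyclic loess, 5 against 5 arrays) of each of the 62 tested histone genes of the clusters (y axis), grouped by type, with bars for ± 1 standard error. Filled circles mark the 9 genes with an adjusted p under 0.05 and black ticks the value without miR-1225-3p replicate 5. Most genes lie near 0, and H3C15 is the farthest out at -2.78.

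H2B, which pairs with H2A to form one of the dimers of the nucleosome, held both the clearest rises and a fall. Of 17 tested H2B genes 3 changed, 2 higher and 1 lower, and the median over the 17 was -0.07. H2BC26 (HIST3H2BB, chr1:228458103-228458558), the H2B gene of the smallest cluster on chromosome 1, had log2 signals of 8.77, 8.70, 8.90, 8.53 and 8.24 in miR-1225-3p replicates 1 to 5 and of 7.80, 7.52, 7.30, 7.42 and 7.64 in scrambled replicates 1 to 5. Every miR-1225-3p array was above every scrambled array, replicate 5 being the lowest of its group. The log2 fold change was 1.09 with a standard error of 0.159, a 2.13-fold rise (adjusted p = 0.0127), and it was 1.19 without replicate 5.

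H2BC18 (HIST2H2BF, chr1:149782689-149812370) belongs to the second cluster of chromosome 1. Its log2 signals were 13.34, 13.55, 14.21, 13.62 and 12.89 in miR-1225-3p cells and 12.86, 12.62, 12.18, 12.40 and 12.45 in scrambled cells. The groups did not overlap, although miR-1225-3p replicate 5 was only just above the highest scrambled array. It rose 2.03-fold (log2 fold change 1.02, standard error 0.235, adjusted p = 0.0161). Its other probes gave log2 fold changes of 1.23 and 1.01, so that all 3 rose.

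H2BC15 (HIST1H2BN, chr6:27838569-27839110) was lower. It measured 9.56, 8.96, 8.91, 8.38 and 10.47 in miR-1225-3p cells and 10.12, 10.13, 10.28, 10.29 and 10.40 in scrambled cells. Replicates 1 to 4 lay below all scrambled arrays, and replicate 5 was above all of them. The log2 fold change was -0.99 with a standard error of 0.333 (adjusted p = 0.0425), and -1.29 without replicate 5, where the adjusted p was 0.000916. H2BC17 had log2 signals of 14.20, 13.97, 14.15, 13.96 and 13.93 against 13.99, 13.53, 13.75, 13.68 and 13.82, a difference of 0.29 that did not pass (adjusted p = 0.0961). The other 13 H2B genes lay between -0.33 (H2BC4) and 0.22 (H2BC9), and none of them passed. They were H2BC9, H2BC13, H2BC5, H2BC4, H2BC3, H2BC11, H2BC6, H2BC8, H2BC7, H2BC21, H2BC10, H2BC12 and H2BC14.

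**Figure D2:**
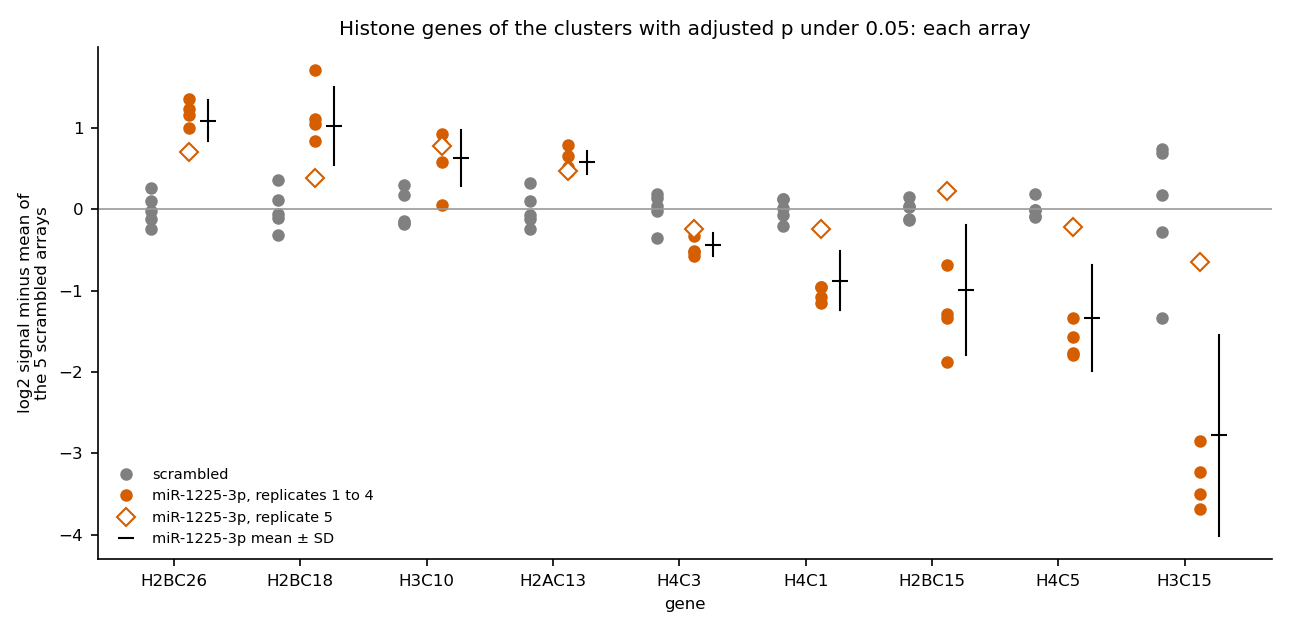
Each array's log2 signal minus the mean of the 5 scrambled arrays (y axis) for the 9 histone genes of the clusters with an adjusted p under 0.05 (x axis). Grey circles are scrambled arrays, orange circles miR-1225-3p replicates 1 to 4, open diamonds miR-1225-3p replicate 5, and black bars the miR-1225-3p mean ± SD (n = 5). Replicate 5 lies nearest to the scrambled arrays for all but H2AC13 and H3C10.

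H2A, the partner of H2B, had a median size of change, whatever its sign, of 0.12 on the log2 scale. Of 15 tested H2A genes only H2AC13 changed, and the median was 0.03. H2AC13 (HIST1H2AI, chr6:27808173-27808667) had log2 signals of 10.71, 10.43, 10.57, 10.37 and 10.39 in miR-1225-3p cells and of 10.23, 9.79, 9.84, 9.67 and 10.01 in scrambled cells. The groups did not overlap, and replicate 5 lay within the range of the other miR-1225-3p arrays. The rise was 1.5-fold (log2 fold change 0.58, standard error 0.141, adjusted p = 0.0179).

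H2AC8, another H2A gene of the chromosome 6 cluster, measured 13.99, 13.77, 14.03, 13.79 and 13.78 against 13.69, 13.56, 13.30, 13.51 and 13.58. Its groups did not overlap either, but the difference of 0.34 missed the threshold (adjusted p = 0.0522). H2AC25, the H2A gene of the smallest cluster, measured 6.38, 6.27, 5.69, 5.57 and 7.46 in miR-1225-3p cells and 6.78, 6.97, 7.29, 7.26 and 7.95 in scrambled cells. Replicates 1 to 4 were below every scrambled array and replicate 5 was not, with a log2 fold change of -0.98 (adjusted p = 0.0556) that became -1.27 (adjusted p = 0.00315) without replicate 5. H2AC19 showed the same layout, with 12.51, 11.81, 11.52, 10.90 and 13.09 against 12.53, 12.58, 12.86, 13.07 and 12.92. Its log2 fold change of -0.83 (adjusted p = 0.0935) became -1.11 (adjusted p = 0.00977). The other 11 H2A genes (H2AC6, H2AC4, H2AC21, H2AC14, H2AC17, H2AC16, H2AC20, H2AC1, H2AC7, H2AC15 and H2AC12) did not pass and lay between -0.71 for H2AC6 and 0.16 for H2AC4.

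Many H2A and H2B genes stand head to head, with a shared stretch of DNA between their starts. Of genes whose strand was given with a promoter window, 9 such pairs had both genes tested, with 194 to 246 bases between the starts. H2AC12, the neighbour of H2BC12, had no window and was not paired. In 4 of the 9 pairs both genes differed in the same direction and in 5 in opposite directions, under cyclic loess. The 75th-percentile scaling gave 4 pairs of like sign too, but not the same 4. With it H2BC4 and H2AC6 were at 0.156 and -0.243, of like sign under cyclic loess. H2BC8 and H2AC8, of opposite sign under cyclic loess, were then at 0.31 and 0.949. With all arrays 1 gene changed in 3 pairs and both in 0 pairs, where 35.0% of all genes changed. Without miR-1225-3p replicate 5, where 55.4% of all genes changed, both genes did so in some pairs. H2AC25 was then at -1.27 and H2BC26 at 1.19 (adjusted p = 0.00315 and 0.000166). H2BC4 was at -0.53 and H2AC6 at -0.945 (adjusted p = 0.0255 and 0.0136). With all arrays the pair H2AC25 and H2BC26 was the farthest apart, at -0.98 and 1.09. The 230 bases between their starts lie within the H2BC26 window printed above. For H2AC13, which rose by 0.58, the partner H2BC13 was at 0.19 (adjusted p = 0.216). For H2BC15, which fell by 0.99, the partner H2AC15 was at 0.00 (adjusted p = 0.987).

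**Figure D3:**
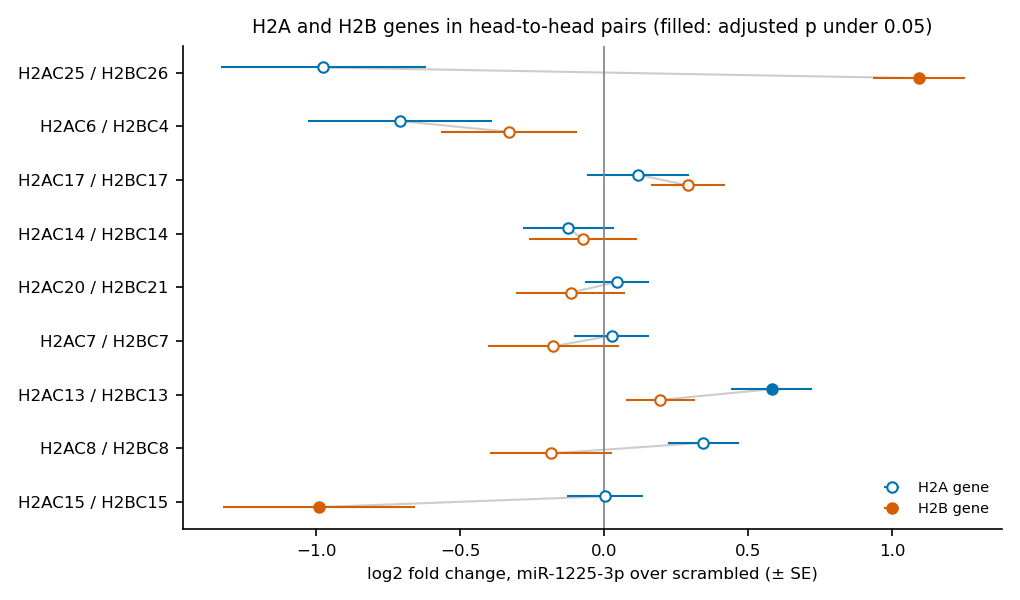
Log2 fold change (x axis, miR-1225-3p over scrambled) of the H2A gene (blue) and the H2B gene (orange) in 9 head-to-head pairs (y axis), with bars for ± 1 standard error and filled circles for an adjusted p under 0.05. Grey lines join the genes of a pair. In 6 pairs both genes are unfilled, and H2AC25 and H2BC26 lie on opposite sides of 0.

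H3, which with H4 forms the tetramer at the centre of the nucleosome, gave the greatest fall of all histone genes. Of 13 tested H3 genes 2 changed, 1 in each direction, and the median was -0.25. H3C15 (HIST2H3A, chr1:149852608-149853125) had log2 signals of 7.71, 7.06, 7.32, 6.87 and 9.91 in miR-1225-3p cells and of 11.30, 11.25, 10.28, 10.73 and 9.22 in scrambled cells. Replicates 1 to 4 were below all scrambled arrays, whereas replicate 5 was above scrambled replicate 5, the lowest of the controls. The signal was 6.86-fold lower (log2 fold change -2.78, standard error 0.60, adjusted p = 0.0149) and the log2 fold change was -3.31 without replicate 5. H3C14, an annotated gene of the same cluster, had no probe assigned to it.

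H3C10 (HIST1H3H, chr6:27810051-27810536) measured 12.36, 12.02, 12.23, 11.48 and 12.21 in miR-1225-3p cells and 11.74, 11.29, 11.26, 11.27 and 11.61 in scrambled cells. Here the overlap came from miR-1225-3p replicate 4, and replicate 5 lay with its group. The probe rose by 0.63 (standard error 0.189, adjusted p = 0.031), but the other probe of H3C10 was at 0.01 (adjusted p = 0.975 over all kept probes). H3C4 measured 11.80, 11.39, 11.55, 11.04 and 12.93 against 12.12, 12.26, 12.65, 12.75 and 12.94, and H3C3 measured 14.34, 14.48, 14.33, 14.44 and 14.69 against 14.60, 14.63, 14.73, 14.78 and 14.83. In both genes miR-1225-3p replicates 1 to 4 lay below all scrambled arrays. Their log2 fold changes of -0.80 and -0.26 did not pass with all arrays (adjusted p = 0.0781 and 0.108) and were -1.10 and -0.32 without replicate 5 (adjusted p = 0.00222 and 0.0232). The other 9 H3 genes (H3-4, H3C8, H3C1, H3C13, H3C7, H3C11, H3C2, H3C6 and H3C12) lay between -0.46 for H3C7 and 0.21 for H3C1, and none passed.

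H4 was the core type whose genes lay most often on one side. Of 13 tested H4 genes 12 had a log2 fold change below 0 under cyclic loess, with a median of -0.32. With the 75th percentile for scaling 11 of the 13 were above 0, with a median of 0.24. Below 0 were 11 with quantile normalization (median -0.19), 11 with normexp (-0.17) and 12 with the deposited values (-0.40). Without normalization 11 were below 0 (median -0.18, beside -0.26 over all genes). Under cyclic loess only H4C1, H4C5 and H4C3 changed, all lower. H4C5 (HIST1H4E, chr6:26204610-26205021) measured 10.01, 9.77, 9.57, 9.55 and 11.13 in miR-1225-3p cells and 11.33, 11.24, 11.26, 11.34 and 11.53 in scrambled cells. All miR-1225-3p arrays were below all scrambled arrays, replicate 5 by the narrowest margin. The fall was 2.52-fold (log2 fold change -1.33, standard error 0.279, adjusted p = 0.0142), and the log2 fold change was -1.61 without replicate 5.

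H4C1 (HIST1H4A, chr6:26021649-26022050) measured 9.47, 9.34, 9.47, 9.26 and 10.18 against 10.54, 10.54, 10.36, 10.43 and 10.22, again without overlap and with replicate 5 next to the scrambled arrays. It fell 1.84-fold (log2 fold change -0.88, standard error 0.182, adjusted p = 0.0142), and its other probe gave -0.96. H4C3 (HIST1H4C, chr6:26103933-26104337) measured 15.18, 15.23, 15.22, 15.42 and 15.51 against 15.79, 15.89, 15.73, 15.93 and 15.39. Here a scrambled array, replicate 5, lay among the miR-1225-3p arrays, and the difference of -0.43 on the log2 scale (standard error 0.14, adjusted p = 0.0381) turned to 0.26 with the 75th percentile. H4C8 measured 11.32, 11.09, 11.10, 10.66 and 11.40 against 11.85, 11.52, 11.47, 11.40 and 11.39, a difference of -0.41 (adjusted p = 0.0753) that was 0.08 with the 75th percentile. The other 9 H4 genes did not pass. H4C7, the 1 gene above 0, was at 1.05 with a standard error of 0.552 and stood above background in 4 miR-1225-3p and 2 scrambled samples. H4C12, H4C13, H4C15, H4C9, H4C2, H4C4, H4C11 and H4C6 lay between -0.34 and -0.10 under cyclic loess, and every one of these 8 was above 0 with the 75th percentile.

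The linker histones of the clusters gave no gene past the threshold among the 4 tested with limma under cyclic loess, and 1 had an unadjusted p under 0.05. H1-3 measured 13.99, 14.04, 14.35, 13.92 and 13.45 in miR-1225-3p cells and 13.86, 13.42, 13.26, 13.36 and 13.43 in scrambled cells. Its log2 fold change was 0.48 (adjusted p = 0.0639) and 0.61 without replicate 5 (adjusted p = 0.00811). With the 75th percentile it was 1.09 (adjusted p = 0.0192). With quantile normalization its probe was at 0.61 (adjusted p = 0.0322 over all kept probes). H1-4 went the other way, with 14.81, 14.34, 14.33, 13.56 and 15.01 against 15.27, 14.94, 14.81, 14.77 and 14.96, a difference of -0.54 (adjusted p = 0.114) that was 0.12 with the 75th percentile. H1-2 measured 17.52, 17.53, 17.66, 17.28 and 17.64 against 17.96, 17.86, 17.63, 17.63 and 17.56, and H1-5 measured 8.58, 8.41, 8.55, 8.41 and 8.33 against 8.29, 8.34, 8.49, 8.45 and 8.69. The groups overlapped in both, with log2 fold changes of -0.20 and 0.01, and that of H1-2 was 0.58 with the 75th percentile.

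Outside the clusters lie linker histone genes that are not tied to S phase. H1-10 measured 7.87, 7.49, 7.27, 5.82 and 9.60 in miR-1225-3p cells and 8.97, 8.67, 9.35, 9.07 and 9.46 in scrambled cells. Replicates 1 to 4 were below every scrambled array and replicate 5 above all of them. The log2 fold change of -1.49 (adjusted p = 0.0591) was -1.99 without replicate 5 (adjusted p = 0.00208). H1-7, a testis histone, was at -0.03 (adjusted p = 0.927).

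Where a gene had several kept probes, the values could be set against each other. No gene had probes that passed in opposite directions. The gene value was that of the brightest probe, and the choice mattered for 3 genes whose other probe passed over all kept probes. The second probe of H2AC6 was at -1.85 (adjusted p = 0.0146) beside -0.71, that of H2BC21 at -1.58 (adjusted p = 0.03) beside -0.12, and that of H2AC17 at 0.39 (adjusted p = 0.0439) beside 0.12. The dimmer probe of H2BC21 was bright enough on 2 of 5 miR-1225-3p arrays to count as above background, and that of H2AC6 on 3. Core histone genes of a type encode closely similar proteins. Their coding sequences and the probe sequences were not compared here, so which copies a probe reads was not tested. The labelling kit copies RNA through cDNA from a primer that binds poly(A) tails. What share of these signals came from histone transcripts with a tail was not tested.

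Without miR-1225-3p replicate 5 more genes passed, among the histone genes as among all genes. Of the 65 histone genes 26 then changed (40.0%), against 55.4% of all genes. They were 7 higher genes, where 26.4% of all genes were higher, and 19 lower genes, where 29.0% were lower. All 10 genes that changed with all arrays were among the 26. By type the counts were 2 of 4 for H1, 5 of 15 for H2A, 5 of 17 for H2B, 7 of 13 for H3 and 5 of 13 for H4.

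Taken per array, the median difference of the H3 genes from the scrambled mean was between -0.34 and -0.29 in miR-1225-3p replicates 1 to 4 and 0.17 in replicate 5, and between -0.08 and 0.11 on the scrambled arrays. For H3, replicates 1 to 4 thus lay below all scrambled arrays and replicate 5 above all of them. For H4 the median was between -0.45 and -0.18 on all 5 miR-1225-3p arrays. It spanned -0.33 to 0.43 on the scrambled arrays, so that the groups overlapped. For H2A and H2B the miR-1225-3p arrays lay on both sides of 0, from -0.19 to 0.21 and from -0.36 to 0.31. These medians are descriptions under cyclic loess.

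**Figure D4:**
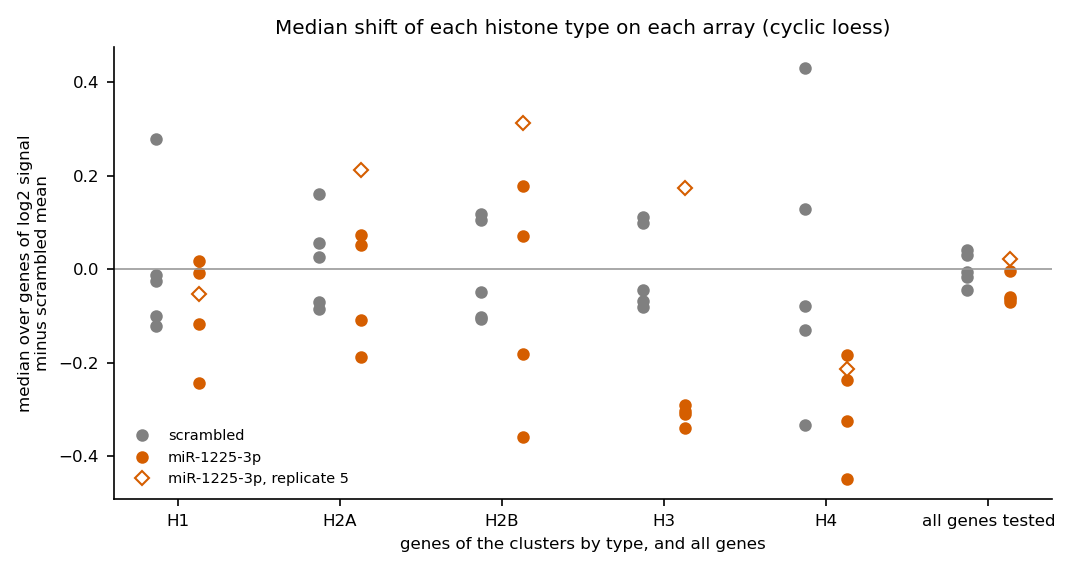
Median over genes of the log2 signal minus its scrambled mean (y axis) on each array, for the cluster genes of each histone type and for all genes tested (x axis). Grey circles are scrambled arrays, orange circles miR-1225-3p replicates 1 to 4 and open diamonds replicate 5. The H3 genes of replicates 1 to 4 lie below all scrambled arrays, and the H4 genes vary most among the scrambled arrays.

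The direction of many of these differences rested on how arrays were scaled to each other. With each array's 75th percentile subtracted in place of cyclic loess, 25 histone genes changed, 22 higher (26.3% of all genes were higher) and 3 lower (14.9% of all genes), and the median of all genes tested moved from -0.06 to 0.16. With quantile normalization 12 changed (35.4% of all genes did), 7 higher and 5 lower, where 20.9% of all genes were higher and 14.4% lower. Of the 65 genes, 34 kept the sign of their log2 fold change in all 3 scalings and 31 did not. The 75th-percentile values differed from loess most for bright probes. Over the 1716 genes whose mean log2 signal was at least 12, the median was -0.06 with loess and 0.57 with the 75th percentile, while over the other genes it was -0.06 and 0.09. Of the histone genes 31 (47.7%) had a probe this bright, beside 9.87% of all genes. These 31 had a median of -0.12 with loess and 0.48 with the 75th percentile.

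Under 5 ways of normalizing (cyclic loess, 75th percentile, quantile, the deposited normalized values and normexp background correction), 6 genes changed every time and in the same direction. H2BC26, H2BC18 and H2AC13 were higher, and H3C15, H4C5 and H4C1 were lower. The smallest log2 fold changes among all alternatives tried were 0.86, 0.85 and 0.52 for the first 3 genes. For H3C15, H4C5 and H4C1 the values nearest to 0 were -2.12, -0.88 and -0.48.

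**Figure D5:**
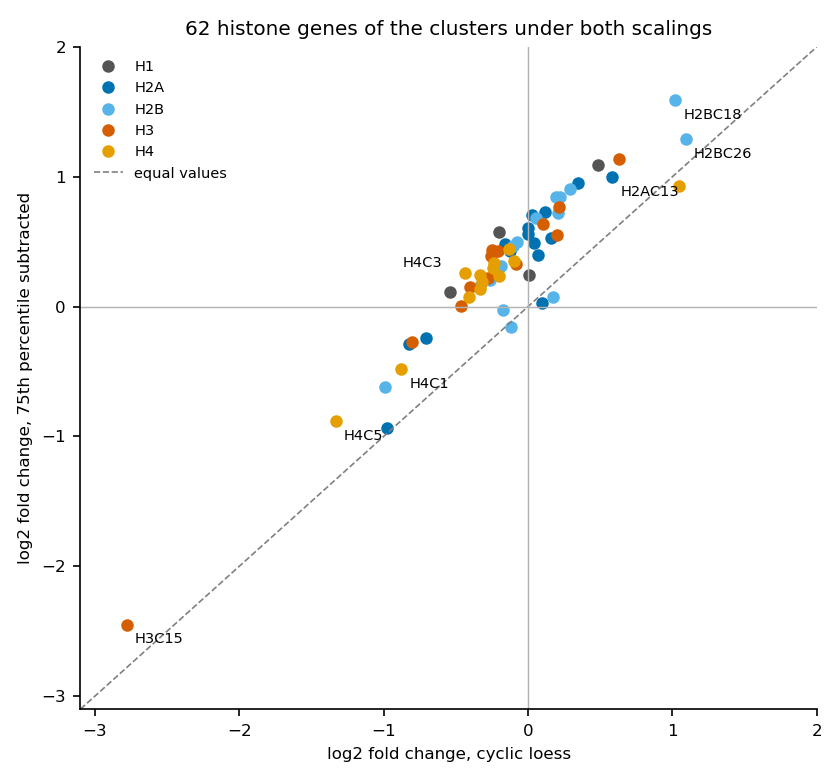
Log2 fold change of the 62 tested histone genes of the clusters after cyclic loess (x axis) and with each array's 75th percentile subtracted (y axis), coloured by type, with the dashed line for equal values. Most points lie above the line, and many cross from below 0 on the x axis to above 0 on the y axis, and the 6 genes that changed under all 5 normalizations and H4C3 are named.

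Several features of the genes were set beside these values. By cluster, 6 of 51 genes of the chromosome 6 cluster HIST1 changed (11.8%, 2 higher and 4 lower). So did 2 of 8 of the HIST2 cluster (25%, 1 in each direction) and 1 of 3 of the HIST3 cluster (33.3%, higher). None of these shares was above the 35.0% of all genes that changed. Most histone genes are short and without introns, and the 56 tested genes whose annotated span was at most 2000 bases had a median span of 487 bases. The other 9 had longer spans, of up to 29682 bases for H2BC18. Among these 9, H2BC18 rose and 1 gene fell, and among the 56 there were 3 rises and 5 falls. Of all genes tested, 17.0% rose and 18.1% fell. Under cyclic loess the 9 long genes had a median of -0.31 on the log2 scale, beside -0.13 for the 56. The split by span was not tested with the other scalings.

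Windows of 250 bases before the start were found for 69 of the 75 genes, 74 windows in all. Genes without one included H4C1, H4C3, H3C11, H3C12 and H2AC12. Searched on both strands, CCAAT was present in every window of cluster H1 (6), H2A (16), H2B (20) and H3 (15) and in 3 of 13 H4 windows, beside 32.0% of 35116 windows of all genes. The octamer ATTTGCAT was found in 11 of 16 H2A and 15 of 20 H2B windows but in 1 of 15 H3 windows and 0 of 13 H4 windows, against 1.63% of all windows. AAACACA was in all 6 cluster H1 windows and in 0 H2A, H2B, H3 or H4 windows, against 4.82%. TATAAA was in 48 of 74 windows (64.9%), against 3763 of 35116. In the 9 head-to-head pairs the starts lay 194 to 246 bases apart, so both windows of a pair covered the DNA between them. A motif there was counted under both H2A and H2B, and some genes had more than 1 window.

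Genes that make, process and handle histone mRNA and protein were read from a list of 40, of which 35 were tested. Of these 10 were higher and 8 lower under cyclic loess (median 0.05), 15 and 8 with the 75th percentile, and 13 and 6 with quantile normalization. Over all genes the shares higher and lower were 17.0% and 18.1% under cyclic loess, 26.3% and 14.9% with the 75th percentile, and 20.9% and 14.4% with quantile normalization. Without miR-1225-3p replicate 5, 13 of the listed genes were higher and 9 lower under cyclic loess, where 26.4% and 29.0% of all genes were. By role, 3 of 6 transcription factors and their regulators were higher and 2 lower, and of 9 factors of the mRNA 3′ end 3 were higher and 1 lower. Of 6 factors of mRNA decay 2 were higher and 1 lower, and of 14 chaperones 2 were higher and 4 lower. SLBP, which binds the stem-loop at the end of histone mRNAs, averaged a log2 signal of 10.71 ± 0.173 (SD, n = 5) after miR-1225-3p, against 10.63 ± 0.0732 in the scrambled group (SD, n = 5), a limma difference of 0.07 (adjusted p = 0.642). ERI1, an exonuclease that trims this end, measured 11.40, 11.14, 11.52, 11.17 and 10.94 against 10.86, 10.72, 10.59, 10.56 and 10.60. It lay higher on every miR-1225-3p array and rose by 0.57 (standard error 0.142, adjusted p = 0.019).

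The processing factors LSM10 and ZNF473 were at -0.18 (adjusted p = 0.275) and -0.16 (adjusted p = 0.712), and LSM10 was at 0.18 with the 75th percentile. CASP8AP2, a component of the bodies in which histone genes are transcribed, was at -0.16 (adjusted p = 0.767). NPAT, the activator of histone genes, and LSM11 had no probe bright enough to be tested. CDK2, the kinase that activates NPAT, was lower by 2.13 on the log2 scale (adjusted p = 0.0147), and its probe exceeded background in 2 of 5 miR-1225-3p samples. DAXX, a chaperone of the variant H3.3, stood at -1.20 (adjusted p = 0.0138), and NCBP1, a subunit of the cap-binding complex, at 1.25 (adjusted p = 0.0147).

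Most of the replication-independent variants are made throughout the cell cycle. Of 10 tested, 0 were higher and 1 lower under cyclic loess, with a median of -0.26 beside -0.06 over all genes. With the 75th percentile 4 were higher and 0 lower, and with quantile normalization 1 and 1, beside the same shares of all genes as above. Without miR-1225-3p replicate 5, 1 was higher and 4 lower under cyclic loess, where 26.4% and 29.0% of all genes were. H2AZ1 was at 0.10 (adjusted p = 0.565), and H3-3A and H3-3B, which both encode H3.3, were at -0.08 and -0.39 (adjusted p = 0.58 and 0.105), and at 0.64 and 0.31 with the 75th percentile. H2AJ was at 0.42, MACROH2A1 at -0.61 and H2AX at -0.41, and none of these passed with all arrays. Without replicate 5 H2AJ was at 0.54 (adjusted p = 0.00375) and MACROH2A1 at -0.83 (adjusted p = 0.00336). H3-3B was then at -0.50 (adjusted p = 0.0169) and H2AX at -0.37 (adjusted p = 0.127).

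Among genes of DNA replication and S phase 22 of 23 were tested, and 9 were higher and 3 lower under cyclic loess (median 0.29), 15 and 3 with the 75th percentile, and 11 and 3 with quantile normalization, beside the same shares of all genes as above. E2F1, a transcription factor of S phase entry, rose by 0.86 (adjusted p = 0.0136). CDC45 and MCM6, parts of the replicative helicase, rose by 0.82 and 0.88 (adjusted p = 0.0136 for both), and all 3 were higher on every miR-1225-3p array. The 3 lower genes, named here after their values were seen, were RRM2, a subunit of ribonucleotide reductase, FEN1, a flap endonuclease, and CCNA2, the cyclin of S phase. RRM2 fell by 3.04 on the log2 scale (adjusted p = 0.0182), and its probe exceeded background in 1 of 5 miR-1225-3p samples. FEN1 had a difference of -1.502 (adjusted p = 0.0223) and CCNA2 of -0.96 (adjusted p = 0.0138), and only for CCNA2 of these 3 did the groups not overlap. Set beside these, the histone genes gave 4 higher and 6 lower of 65 under cyclic loess with all arrays. With the 75th percentile they gave 22 higher and 3 lower, and with quantile normalization 7 and 5. Without miR-1225-3p replicate 5, under cyclic loess, 12 of the S phase genes were higher and 5 lower, and of the histone genes 7 and 19. Of all genes 26.4% were then higher and 29.0% lower. For the 62 cluster genes alone the counts were 4 and 5 with all arrays and 7 and 17 without replicate 5. Whether the cells' distribution over the cell cycle differed was not tested.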

How the data were processed

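RNA of 10 samples was hybridised by the authors to single-colour Agilent arrays, and the spot intensities were read with Feature Extraction 10.7.3.1, the version in the scanner output. The authors deposited intensities that were background-subtracted but not normalized between arrays, and a table of normalized log2 values, which was used as an alternative. Here log2 of the processed signal was normalized between arrays with the fast cyclic loess of limma 3.58.1 (3 iterations, R 4.3.3), after removal of 4259 control spots and of spots marked as outliers, and spots of 1 probe were averaged. The 20648 probes that Feature Extraction marked as well above background in 3 or more samples of a group were kept. Of 42405 probes, 24907 were named through RefSeq (GRCh38.p14), and unnamed ones kept their accession. The brightest kept probe stood for a gene, which gave 17379 genes. The antisense transcript H1-10-AS1 and the pseudogene H1-9P were left out.

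Groups were compared with lmFit and eBayes, with Benjamini-Hochberg adjustment over all genes at 0.05. With 5 against 5 arrays, the two-sided exact permutation test cannot go below p = 0.00794. The alternatives were the 75th percentile, quantile or no normalization, the deposited log2 values, normexp on the median intensity (offset 50), other filters and probe rules, the methods' t-test, trend with robust eBayes, array weights (by REML over genes with no missing value), slide and replicate blocks, single slides and leaving out each array. The scripts were tested on simulated data. Up to 4 genes of each histone type with the smallest p were given in every array, linker gene H1-10 and 10 fixed genes of the lists always, and up to 3 others of each list by p. The histone genes, lists and tests were chosen with earlier results of these data known. Some genes that the rules name are counted but not reported here. The number of arrays limits the precision.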

Additional observations from a re-analysis of the deposited data

Results flagged for a closer look

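Of 76 groups of 5 arrays examined over the named genes, 11 held an array far from the other 4, where about 1 in 20 groups (3.8) would by chance. For 8 of these the array was miR-1225-3p replicate 5, which also stood among the scrambled arrays on the first principal component, and whether its transfection differed was not tested. Its log2 signal was 9.9126 for H3C15 (nearest other array of the group 7.7101), 10.1751 for H4C1 (9.4709) and 11.1265 for H4C5 (10.0071). It was 9.6389 for DAXX, 6.824 for CDK2, 6.123 for NCBP1, 11.1206 for H2AJ and 7.0098 for E2F1. Scrambled replicate 1 stood apart for H4C8 at 11.8527, scrambled replicate 4 for H3-3A at 16.1126, and miR-1225-3p replicate 3 for ZNF473 at 3.4966.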

How the results depend on the processing

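With all 10 arrays 10 histone genes changed, 4 higher and 6 lower. The 75th percentile gave 25 (22 higher, 3 lower), no normalization 1 (0 and 1, with 7 at an unadjusted limma p under 0.05) and array weights 41 (13 and 28). Quantile normalization gave 7 higher, normexp 9 higher and trend with robust eBayes 7 higher. Without a filter on dim probes 6 of 70 changed, 3 lower, and 3411 of 35267 genes in all. Over all 17379 genes tested, 6091 changed with all arrays, 7147 with the 75th percentile, 1266 without normalization and 12389 with array weights. Of these 17379, 3635 were higher with quantile normalization, 3525 with normexp and 3049 with trend and robust eBayes. Leaving out 1 array gave 6 to 26 histone genes, 3 to 7 higher and 3 to 19 lower, and 2129 to 9624 genes in all. The count of 26 came from leaving out miR-1225-3p replicate 5. It was 6 when the array left out was replicate 1, 2 or 3 of miR-1225-3p, or replicate 2, 3 or 4 of the scrambled group, and 7 or 9 for the others. Slide as a block gave 8. Within slide 1 there were 7, 2 of them higher, and within slide 2, with 5 arrays, 0 (3 at an unadjusted limma p under 0.05, and 0 of all genes). The cause was not tested.

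Same-numbered arrays did not deviate together (correlations -0.401 to 0.0723, with 0 of 5 miR-1225-3p and 1 of 5 scrambled arrays closest to their own number). Whether the numbers mark transfections done together cannot be told from this, since miR-1225-3p replicate 5 stood apart within its group. With the replicate block limma called 0 histone genes (16 at an unadjusted p under 0.05) and 0 of all genes, and 0 of H1, H2A, H2B, H3 and H4 alike.

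By type, the H1 count of 0 became 1 with the 75th percentile, quantile, normexp and trend, 2 with array weights and 0 to 2 leaving out 1 array. The H2A count of 1 became 9 with the 75th percentile, 3 with normexp, 6 with array weights, 0 without normalization and within either slide, and 2 with quantile, trend, the mean of probes, the methods' t-test and the filter on all 10 arrays, and was 1 to 5 leaving out 1 array. The H2B count of 3 became 9 with the 75th percentile, 5 with normexp, 13 with array weights, 0 without normalization or within slide 2, and 2 to 5 leaving out 1 array. The H3 count of 2 became 4 with the 75th percentile, 11 with array weights, 0 within slide 2, and 1 without normalization, without the filter, with the mean of probes and within slide 1, and was 1 to 7 leaving out 1 array. The H4 count of 3 became 7 with array weights, 0 without normalization or within slide 2, and 2 to 5 leaving out 1 array.

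With the 75th percentile the log2 fold change turned to 0.115 for H1-4, 0.577 for H1-2, 0.391 for H3C3, 0.259 for H4C3, 0.075 for H4C8, 0.176 for LSM10, 0.643 for H3-3A, 0.313 for H3-3B and 0.0554 for H2AX. H1-2 was 0.155 without normalization and 0.019 with normexp. H3-3A was 0.22 without normalization, 0.158 with quantile, 0.157 with normexp and 0.0123 with the mean of probes. H1-5 was -0.181 without normalization, -0.0288 with the deposited values, -0.0277 with array weights and -0.0347 to 0.0651 leaving out 1 array. H2AZ1 was -0.0146 with array weights. CASP8AP2 was 0.0454 with normexp, 0.776 within slide 1 and -0.513 to 0.124 leaving out 1 array. Within slide 1 ZNF473 was 0.0402 and H2AX 0.0415, and within slide 2 SLBP was -0.000366. ZNF473 spanned -0.306 to 0.13 leaving out 1 array.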
